A study of Mus musculus with 12 samples.

Results

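The insulin-like growth factor (IGF) binding proteins of the mouse lung were followed through 8 genes: Igfbp2, Igfbp3, Igfbp4, Igfbp5, Igfbp6 and Igfbp7, the ligand Igf1 and its receptor Igf1r. They are 8 of the 12393 genes named on the array. All 19 probe sets that the platform annotation gives to these symbols were taken, and 17 of them passed the filter on low signal, with at least 1 for each gene. The set was chosen by measured signals of these arrays, with the low Igfbp2 signal of knockout lungs in view, so every difference between genotypes is given below as a description, without a test. The effect of ventilation, and whether it differed between genotypes, was tested.

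Lung RNA of CD-1/ICR mice was measured on 12 arrays (Affymetrix Murine Genome 430A), which read each gene through short oligonucleotide probe sets. The 4 groups of 3 arrays were Nrf2-/- lungs after mechanical ventilation at a tidal volume of 30 ml/kg for 2 h (KO HVT), Nrf2-/- lungs after 2 h of spontaneous breathing (KO SpV), Nrf2+/+ lungs after the same mechanical ventilation (WT HVT) and Nrf2+/+ lungs after 2 h of spontaneous breathing (WT SpV). Nrf2 is the product of the gene Nfe2l2 and switches on antioxidant and detoxification genes; the study asks how oxidative stress bears on the injury that a ventilator causes. The labels give 11 arrays as left lung lobe and 1, WT SpV array 1, as whole lung. They do not say whether the 3 arrays of a group came from separate animals, so the p-values measure only how far these arrays spread, and that spread may be technical.

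IGF-I and IGF-II are secreted growth factors that signal through the IGF-I receptor, a tyrosine kinase of the insulin receptor family. The secreted binding proteins of high affinity hold the IGFs in blood and tissue fluid, prolong their life and keep them from the receptor until proteases such as pappalysin cut the binding protein; IGFBP7 is a relative of low IGF affinity that is laid down in vessel walls. In the mouse lung, Igfbp2 is known as a marker of mature alveolar type I cells, the thin cells that form the gas exchange surface, while fibroblasts, endothelium and mesothelium make other members of the family.

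The promoters of 3 members are shown because the results turn on them: Igfbp2, whose signal differed most between genotypes; Igfbp7, whose signal was next in likeness to it among the members; and Igfbp5, the neighbour of Igfbp2 on chromosome 1, with 0 annotated genes between them, whose main probe set differed the other way on the normalized scale though not without scaling. Each is the RefSeq window (build GRCm38.p6) of 300 bases, from 250 before to 50 after an annotated start, written 5′ to 3′ on the gene's strand. Capitals mark matches, on either strand, to the core of the antioxidant response element that Nrf2 binds (TGACNNNGC, on the other strand GCNNNGTCA) or to the GC box (GGGCGG, on the other strand CCGCCC); these 2 motifs did not overlap in the windows shown.
Igfbp2, first start, chr1:72824230-72824529, plus strand: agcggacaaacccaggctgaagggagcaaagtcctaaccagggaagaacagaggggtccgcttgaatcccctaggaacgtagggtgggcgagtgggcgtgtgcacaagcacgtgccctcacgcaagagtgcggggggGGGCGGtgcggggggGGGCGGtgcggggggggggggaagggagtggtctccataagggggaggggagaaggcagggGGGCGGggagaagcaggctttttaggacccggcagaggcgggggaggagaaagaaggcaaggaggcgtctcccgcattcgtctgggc
Igfbp2, second start, chr1:72825137-72825436, plus strand: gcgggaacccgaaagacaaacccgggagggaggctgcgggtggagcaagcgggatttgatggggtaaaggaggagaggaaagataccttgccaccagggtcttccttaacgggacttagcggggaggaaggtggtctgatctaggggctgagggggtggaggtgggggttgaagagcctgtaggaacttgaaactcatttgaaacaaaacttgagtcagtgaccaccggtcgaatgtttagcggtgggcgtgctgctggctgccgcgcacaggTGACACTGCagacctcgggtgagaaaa
Igfbp7, chr5:77407996-77408295, minus strand: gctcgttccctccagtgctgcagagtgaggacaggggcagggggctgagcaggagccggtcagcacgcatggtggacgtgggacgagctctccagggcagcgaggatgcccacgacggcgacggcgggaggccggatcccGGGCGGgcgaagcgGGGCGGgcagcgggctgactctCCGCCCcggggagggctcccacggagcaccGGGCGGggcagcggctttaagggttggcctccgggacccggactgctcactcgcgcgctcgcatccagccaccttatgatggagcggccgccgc
Igfbp5, chr1:72874816-72875115, minus strand: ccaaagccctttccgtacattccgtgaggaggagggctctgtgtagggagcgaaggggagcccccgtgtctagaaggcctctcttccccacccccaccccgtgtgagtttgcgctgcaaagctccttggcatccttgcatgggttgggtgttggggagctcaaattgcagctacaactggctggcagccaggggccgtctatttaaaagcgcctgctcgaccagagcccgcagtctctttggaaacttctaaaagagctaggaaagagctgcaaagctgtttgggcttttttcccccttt
The window at the first Igfbp2 start held 3 GC boxes, at bases 113 to 108, 98 to 93 and 37 to 32 before the start, and no match to the response element core. The window at the second Igfbp2 start held 1 core match, TGACACTGC, at bases 24 to 32 after the start. Of the 9 windows of the 8 genes, 1 held the core, against 4071 of all 32851 RefSeq windows (12.4%), and 3 held a GC box, against 11714 (35.7%). Igfbp7 had 4 GC boxes, Igf1r (window not shown) had 2, and the Igfbp5 window had neither motif. A match describes the letters of the window only.

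The arrays differed in brightness before any scaling. Their trimmed mean deposited signal ranged from 73.9 to 469.5, and KO SpV array 1 was the dimmest. That array also had a beta-actin control whose 3′ probe set was 8.76 times as bright as its 5′ probe set, against 1.39 to 3.1 times on the other 11 arrays; this ratio goes up when RNA is degraded or poorly copied. All values below are normalized signals, on a linear scale on which every array has the same distribution, and differences are in log2(signal + 16). Nfe2l2, the targeted gene, read 36.2 to 61.2 on the 6 KO arrays and 2143.3 to 3293.9 on the 6 WT arrays, as labelled. Sftpc, the surfactant gene of alveolar type II cells, read 12184.3 to 26096.2 on every array, as lung tissue does. Results that rest on KO SpV array 1 are given with and without it.

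Igfbp2 was much lower in Nrf2-/- lungs under both kinds of breathing. Its signal was 282.3, 251.8 and 535.8 on the KO HVT arrays and 127.2, 1175.1 and 855.7 on the KO SpV arrays, against 1435.3, 2069 and 1322 on the WT HVT arrays and 2194.6, 3230.8 and 2988.2 on the WT SpV arrays. Every KO array lay below every WT array; over all probe sets tested, 1.34% had all 6 KO arrays below all 6 WT arrays. The group means were 356.6 ± 155.9 in KO HVT, 719.4 ± 537.1 in KO SpV, 1608.8 ± 402.6 in WT HVT and 2804.5 ± 542 in WT SpV lungs (SD, n = 3 each).

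The difference of KO HVT minus WT HVT in Igfbp2 was -2.17 ± 0.60 on the log2 scale (SE), a 4.51-fold lower signal. That of KO SpV minus WT SpV was -2.39 ± 0.60, or 5.25-fold lower, and the average of both was -2.28 ± 0.43, or 4.87-fold lower. KO SpV array 1 carried the lowest value of the gene. Without it, the KO SpV minus WT SpV difference was -1.45 ± 0.30, or 2.73-fold lower, and the average -1.81 ± 0.20. Without scaling the average was -2.79, on a scale where the median of all probe sets moved by -0.60. Because the rule chose Igfbp2 for this difference, these values describe it and test nothing. In tissue RNA, fewer cells of a type and less RNA per cell cannot be told apart.

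**Figure D1:**
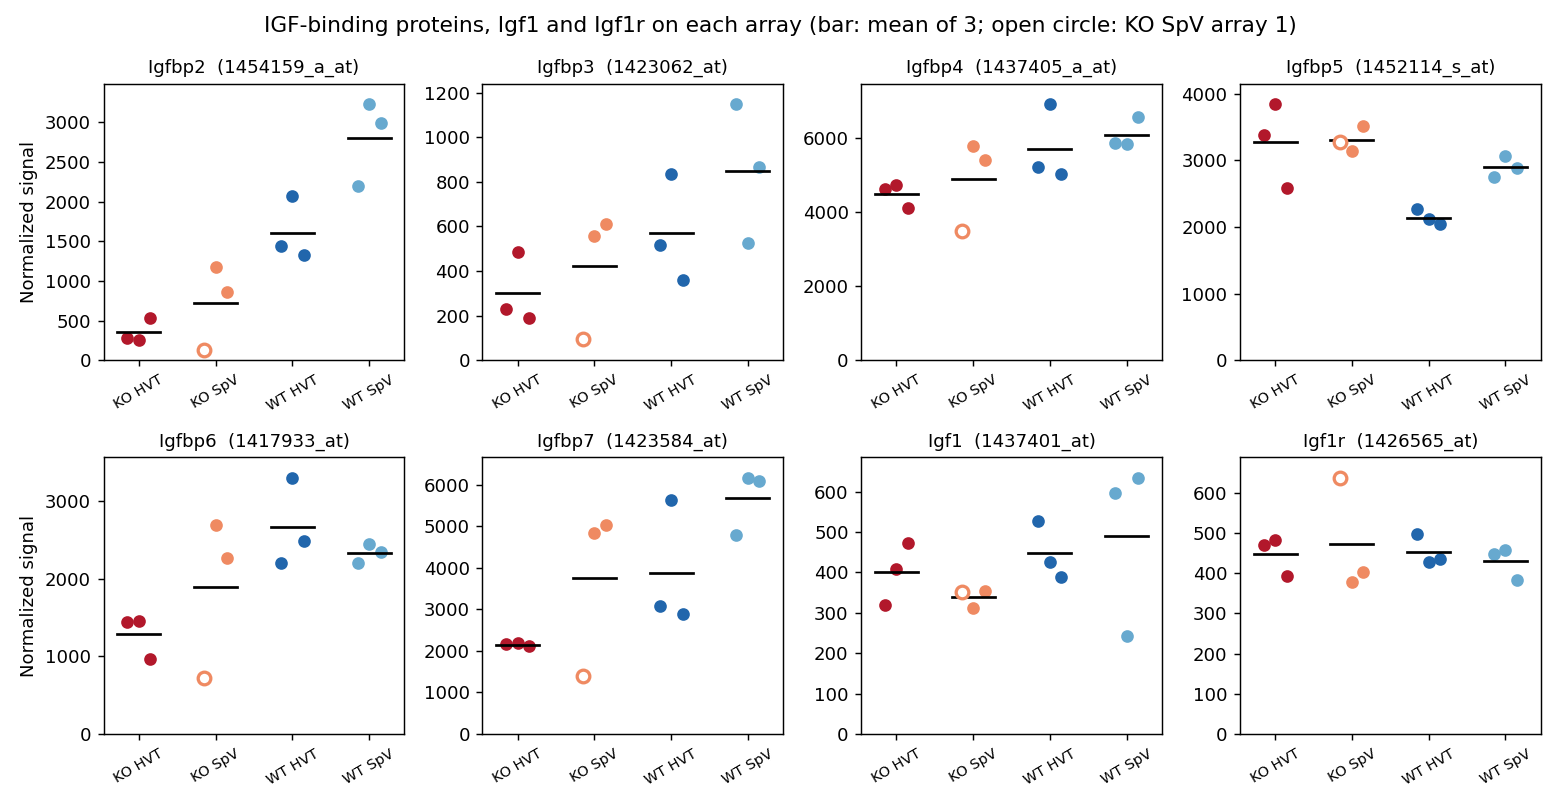
Normalized signal (linear, each vertical axis from 0) of the representative probe set of each of the 8 genes in KO HVT, KO SpV, WT HVT and WT SpV lungs; each circle is 1 array, each bar the mean of 3, and the open circle is KO SpV array 1. Igfbp2 shows all KO arrays below all WT arrays, Igf1r shows groups that overlap, and the open circle is the lowest point for Igfbp2, Igfbp3, Igfbp4, Igfbp6 and Igfbp7.

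Within each genotype, the Igfbp2 signal of the ventilated group had the lower mean. In wild-type lungs the 3 HVT arrays lay below the 3 SpV arrays, a pattern that 8.01% of all probe sets shared. The WT HVT minus WT SpV difference was -0.80 ± 0.60 (95% interval -2.11 to 0.51), which missed the threshold (limma, adjusted p = 0.866). In knockout lungs the KO HVT minus KO SpV difference was -0.58 ± 0.60 (adjusted p = 0.758), and the groups overlapped through KO SpV array 1. The averaged ventilation difference was -0.69 ± 0.43 (adjusted p = 0.505).

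Leaving out KO SpV array 1 changed the call for Igfbp2 in knockout lungs. Against the remaining arrays, which read 1175.1 and 855.7, the 3 KO HVT arrays were all lower, and the difference was -1.53 ± 0.30 (limma, adjusted p = 0.0159). On these arrays the beta-actin ratio was 2.21 to 3.1 in KO HVT against 1.39 and 1.52 in KO SpV lungs. Their trimmed mean deposited signals were 181.6 to 246.6 against 446.1 and 469.5. Ventilation and array quality therefore cannot be told apart in the knockout calls of that fit, here and below. The WT HVT minus WT SpV difference in that fit was -0.80 ± 0.27 (adjusted p = 0.236), and the averaged one -1.17 ± 0.20 (adjusted p = 0.0105), a 2.24-fold lower signal. Over the 23 alternatives, the adjusted p for knockout lungs ranged from 0.0159 to 1. The interaction, which asks whether ventilation acted differently in the 2 genotypes, was 0.22 ± 0.85 with all arrays (95% interval -1.63 to 2.07) and -0.72 ± 0.41 without that array (adjusted p = 1 and 0.427).

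Summed markers of alveolar type I cells were lowest on the arrays with the lowest Igfbp2 signal, but did not follow Igfbp2 on every array. Of 14 listed markers 11 were on the array and all 11 passed the filter; their summed signal was 22003 to 28015 in KO HVT and 19895 to 50538 in KO SpV lungs, against 39640 to 57005 in WT HVT and 48360 to 63288 in WT SpV lungs. The low end of the KO SpV sums was array 1. Arrays 2 and 3 of that group summed to 50538 and 45691, within the span of the WT arrays. Their Igfbp2 signals, 1175.1 and 855.7, were below those of every WT array. Averaged over breathing, all 11 markers were lower in KO than in WT, with a median difference of -0.64 with KO SpV array 1 included. Ager, a receptor abundant in type I cells, read 1785.5 to 2664.6 in KO HVT and 1374.6 to 7286.2 in KO SpV lungs, against 5412.3 to 8711.6 in WT HVT and 7136.9 to 11439.9 in WT SpV lungs. No listed type I marker was at or near 0.

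The summed signal of 14 endothelial markers, all on the array and above the filter, was 13757 to 16065 in KO HVT and 13770 to 30860 in KO SpV lungs, against 24565 to 40127 in WT HVT and 34293 to 44272 in WT SpV lungs. The lowest KO SpV sum, 13770, was that of array 1. The median endothelial difference, KO minus WT averaged over breathing, was -0.91 with that array included. Of 9 alveolar type II markers 7 were lower and 2 higher in KO, with a median of -0.30, also with that array. The summed signal of 7 heart muscle markers was higher in KO lungs on this scale, 45215 to 53851 in KO HVT and 36700 to 42179 in KO SpV lungs, against 22143 to 33789 in WT HVT and 21966 to 31345 in WT SpV lungs. The part of cell make-up, RNA quality or heart tissue in the Igfbp2 difference was not tested.

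The actin ratio was 2.21 to 3.1 in KO HVT and 1.39 to 8.76 in KO SpV lungs, against 1.53 to 1.99 in WT HVT and 2.08 to 2.51 in WT SpV lungs. With the log2 actin ratio as a covariate, the averaged KO minus WT difference of Igfbp2 was -1.82 ± 0.23. It was -1.45 after ventilation and -2.19 at rest, against -2.17 and -2.39 without the covariate. The ratio was 8.76 on KO SpV array 1 and at most 3.1 on any other array, so the covariate leaned largely on that array. Leaving that array out gave a similar average, -1.81 ± 0.20. The ratios of the KO HVT and WT HVT arrays did not overlap. The part of RNA quality in the genotype differences after ventilation was not tested for any member.

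**Figure D2:**
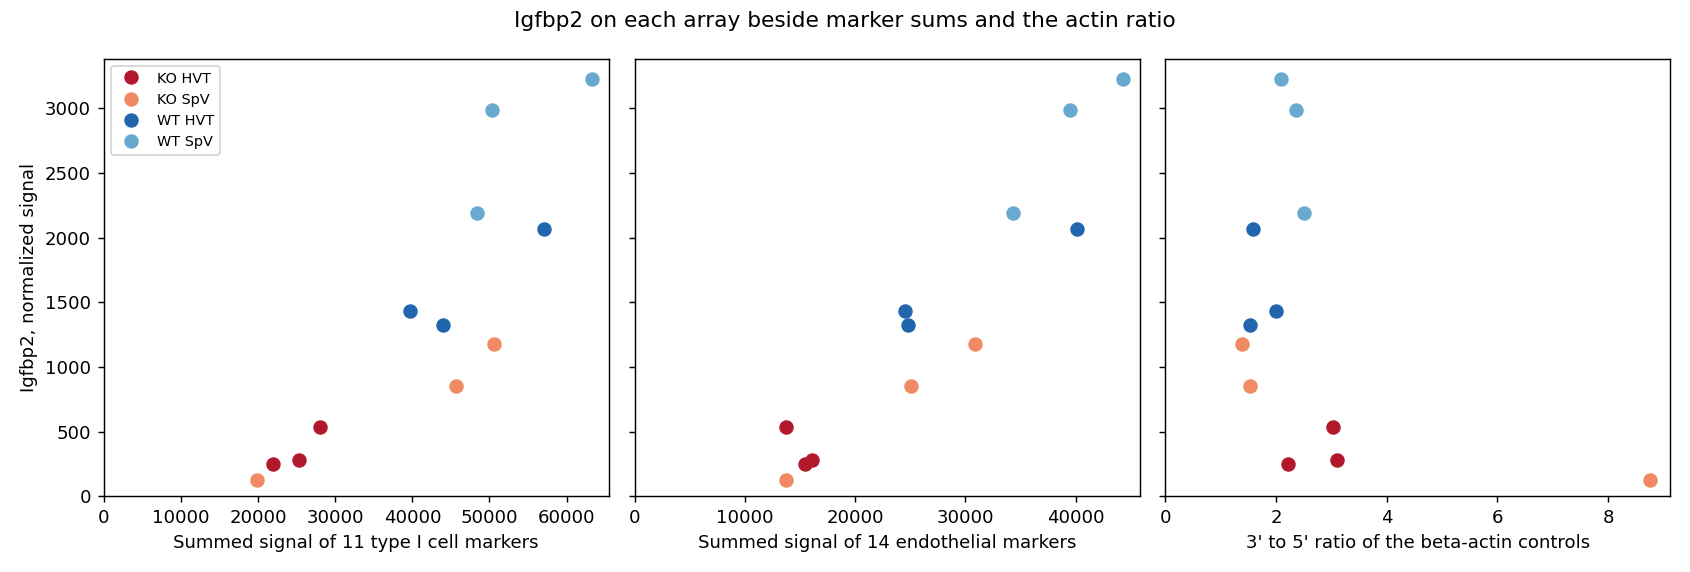
Normalized Igfbp2 signal (vertical axis, linear) on each of the 12 arrays against the summed signal of 11 type I cell markers, the summed signal of 14 endothelial markers and the actin ratio, 3′ over 5′ control probe set (horizontal axes, linear); colours give the 4 groups. The KO HVT arrays and KO SpV array 1 have the lowest sums of both lists and the lowest Igfbp2 signal, the WT SpV arrays have the highest Igfbp2 signal, and KO SpV array 1 stands alone at an actin ratio of 8.76.

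The 5 genes whose profile over the 12 arrays was most like that of Igfbp2, among 9328 genes, were S100g, Thbd, Cdh5, Cldn18 and Npnt. Likeness was the root mean square difference of log2 values centred on each gene's mean: 0.42 for S100g, 0.42 for Thbd, 0.43 for Cdh5, 0.48 for Cldn18 and 0.50 for Npnt, against a root mean square deviation of Igfbp2 from its own mean of 1.4. Cldn18, a tight junction protein, is on the type I list, and Cdh5, the cadherin of endothelial junctions, is on the endothelial list. S100g encodes a small calcium-binding protein, Thbd the anticoagulant receptor thrombomodulin, and Npnt the basement membrane protein nephronectin. The points share their arrays and so their RNA quality, which KO SpV array 1 dominates at the low end. Among the members, Igfbp7 (0.84) and Igfbp3 (0.87) were nearest to Igfbp2, then Igfbp6 (0.95) and Igfbp4 (1.18), while Igf1 (1.36), Igf1r (1.52) and Igfbp5 (1.56) were about as far from it as its own mean or farther.

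**Figure D3:**
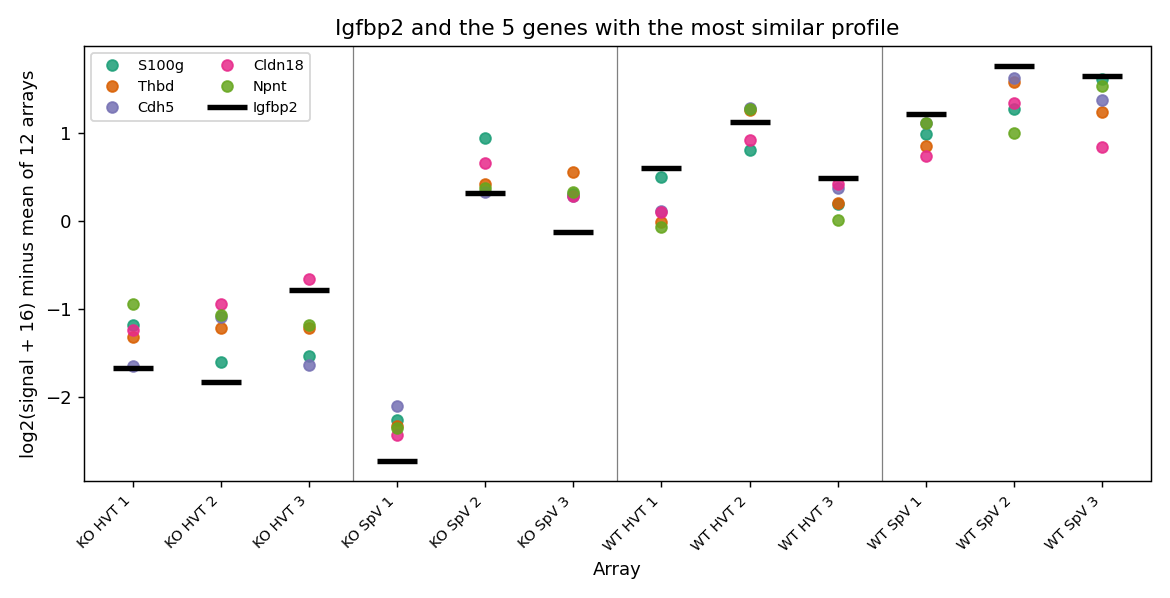
Log2(signal + 16) minus each gene's mean over the 12 arrays (vertical axis) for Igfbp2 (black bars) and S100g, Thbd, Cdh5, Cldn18 and Npnt (coloured circles) on each array (horizontal axis). All 6 genes are lowest on KO SpV array 1 and high on the WT SpV arrays, and Igfbp2 lies below 5 of 5 circles on KO SpV array 3.

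The brighter Igfbp7 probe set had lower means in knockout lungs, without overlap after ventilation. IGFBP7 binds the endothelial receptor CD93 in vessel walls. Its brightest probe set, 1423584_at, read 2156.5, 2186.7 and 2118.4 in KO HVT and 1390.7, 4828.3 and 5041.2 in KO SpV lungs, against 3081.8, 5637.1 and 2881.3 in WT HVT and 4784.8, 6164.3 and 6086.6 in WT SpV lungs. All KO HVT arrays were below all WT HVT arrays, whereas the KO SpV and WT SpV groups overlapped; 13.1% of all probe sets had all KO HVT arrays below all WT HVT arrays. The KO minus WT difference was -0.77 ± 0.40 after ventilation and -0.80 ± 0.40 at rest, but -0.19 ± 0.23 at rest without KO SpV array 1. The weaker probe set, 1423585_at, read 64.1 to 87.1 in KO HVT and 63 to 87.1 in KO SpV lungs, against 68 to 118.8 in WT HVT and 105.7 to 170.1 in WT SpV lungs. Here the groups separated at rest and overlapped after ventilation: the difference was -0.20 ± 0.28 after ventilation and -0.77 ± 0.28 at rest, or -0.64 ± 0.29 at rest without that array. This probe set passed the filter through WT arrays alone, so its lower KO signal adds no support to the brighter one. The remaining probe set, 1437804_at, stayed below the filter, between 20.9 and 48.4.

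The ventilation call for Igfbp7 1423584_at also turned on that array. With all arrays, KO HVT minus KO SpV was -0.58 ± 0.40 (limma, adjusted p = 0.631), and WT HVT minus WT SpV was -0.61 ± 0.40 (adjusted p = 0.839). Without KO SpV array 1, KO HVT minus KO SpV was -1.19 ± 0.23 on the log2 scale (adjusted p = 0.0152). In the average of both genotypes the difference was -0.90 ± 0.16 (adjusted p = 0.0104). In that fit 6 of 14 endothelial, 7 of 11 type I and 4 of 6 macrophage markers (Mrc1, Chil3, Itgax and Cd68) also passed the test as lower in KO HVT than in KO SpV lungs, against 4.02% of all probe sets. So did 2 of 9 type II markers (Slc34a2 and Napsa) and 2 of 10 fibroblast markers (Tcf21 and Mfap4). No listed marker of club and ciliated cells, mesothelium, smooth muscle, heart muscle or liver passed. The part of cell make-up or array quality in the Igfbp7 result, and in the Igfbp2, Igfbp4 and Igfbp6 calls of the same fit, was not tested. The weaker probe set, 1423585_at, did not pass: its KO HVT minus KO SpV difference was -0.06 ± 0.28 with all arrays (adjusted p = 0.958) and -0.19 ± 0.29 without that array (adjusted p = 0.725), and its WT HVT minus WT SpV difference was -0.63 ± 0.28 (adjusted p = 0.652). The call for Igfbp7 thus rested on 1 of 2 probe sets.

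Cd93, the receptor of IGFBP7, had the largest genotype difference among the other genes of the axis when averaged over breathing; after ventilation alone, Esm1 (-1.67 ± 0.78) and Irs2 (-1.35 ± 0.54) differed more than Cd93 (-1.26 ± 0.47). It read 1242.9, 1854.8 and 1861.3 in KO HVT and 594, 2513.5 and 2815.1 in KO SpV lungs, against 2851.3, 5486.9 and 3795.5 in WT HVT and 3491.2, 5572.4 and 4713.5 in WT SpV lungs. Every KO array was below every WT array, a pattern that 1.34% of all probe sets shared. The averaged difference was -1.36 ± 0.33, with KO SpV array 1 included. Cd93 did not pass the test for ventilation in either genotype, with or without KO SpV array 1.

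Igfbp3, the main carrier of IGFs in blood, was variable within groups. It read 227.9, 487.1 and 189.3 in KO HVT and 96.1, 556.8 and 612.5 in KO SpV lungs, against 517.2, 837.7 and 357.9 in WT HVT and 1148.9, 526.7 and 865 in WT SpV lungs. The ranges of KO and WT overlapped under both kinds of breathing. The averaged KO minus WT difference was -1.09 ± 0.42, and -0.69 ± 0.28 without KO SpV array 1. The KO HVT minus KO SpV difference was -0.23 ± 0.59 (limma, adjusted p = 0.924), or -1.03 ± 0.41 without that array (adjusted p = 0.144), and the WT HVT minus WT SpV difference was -0.57 ± 0.59 (adjusted p = 0.918).

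Igfbp6, which prefers IGF-II to IGF-I, separated the genotypes after ventilation but not at rest. It read 1445.3, 1457.7 and 965.6 in KO HVT and 717.2, 2690 and 2267.7 in KO SpV lungs, against 2197.7, 3300.2 and 2490.2 in WT HVT and 2208.4, 2447.3 and 2346.2 in WT SpV lungs. The KO HVT arrays all lay below the WT HVT arrays, as for 13.1% of all probe sets, with a difference of -1.04 ± 0.38. At rest, 1 KO array lay below, 1 within and 1 above the narrow range of the WT SpV arrays, and the difference was -0.50 ± 0.38, or 0.08 ± 0.21 without KO SpV array 1.

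In knockout lungs, the ventilation difference of Igfbp6 was -0.37 ± 0.38 (limma, adjusted p = 0.764). Without KO SpV array 1 it was -0.95 ± 0.21 and passed the test (adjusted p = 0.022), a 1.94-fold lower signal in KO HVT than in KO SpV lungs. In wild-type lungs it was 0.17 ± 0.38 (adjusted p = 0.975). The test of whether these differ, the interaction, gave -0.54 ± 0.54 (adjusted p = 1) with all arrays and -1.12 ± 0.28 (adjusted p = 0.0945) without that array, so it did not pass in either fit. Markers of mesothelium, a known source of IGF binding proteins, summed to 3752 to 4495 in KO HVT and 3318 to 4406 in KO SpV lungs, against 3871 to 4762 in WT HVT and 3001 to 3765 in WT SpV lungs (5 of 7 listed markers on the array, with Wt1 below the filter). Their part in the Igfbp6 values was not tested.

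Igfbp4, an inhibitor of IGF action that is cut by pappalysin, was read by 6 probe sets that did not all move alike. The brightest, 1437405_a_at, read 4622.4, 4721 and 4113.5 in KO HVT and 3484.1, 5790.2 and 5400.9 in KO SpV lungs, against 5210.2, 6914.8 and 5016.2 in WT HVT and 5854.3, 5843.6 and 6577.2 in WT SpV lungs. Its KO arrays were below its WT arrays under each kind of breathing, with a difference of -0.34 ± 0.19 after ventilation and -0.35 ± 0.19 at rest. At rest 9.28% of all probe sets separated this way. Over the 6 probe sets the KO minus WT difference was -0.67 to -0.20 after ventilation, 4 of them with all KO HVT arrays below all WT HVT arrays, which 13.1% of all probe sets showed. At rest it was -0.35 to 0.25, and -0.12 to 0.95 without KO SpV array 1.

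The ventilation difference of Igfbp4 in knockout lungs was below 0 for all 6 probe sets, between -0.67 and -0.09, though at 0.02 for the brightest with trimmed mean scaling alone. In wild-type lungs it was between -0.42 and 0.02. Probe set 1423756_s_at had the largest: 1877.8, 1875.9 and 1090.7 in KO HVT against 1785, 3089.7 and 2854.2 in KO SpV lungs, a difference of -0.67 ± 0.27 (limma, adjusted p = 0.383). Without KO SpV array 1 it was -0.92 ± 0.25 and passed the test (adjusted p = 0.0492); that call rested on 1 of the 6 probe sets of the gene. In wild-type lungs the same probe set read 2340.4, 2828.9 and 1928.5 in HVT against 2449, 3637.2 and 3447.3 in SpV lungs, a difference of -0.42 ± 0.27 (adjusted p = 0.834). Names ending in s_at or x_at mark probe sets that may also bind related transcripts.

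Igfbp5, which binds the extracellular matrix and is made by fibroblasts and smooth muscle, had a main probe set that was higher in knockout lungs on the normalized scale, but not without scaling. Probe set 1452114_s_at read 3385.6, 3841.8 and 2578.8 in KO HVT and 3270.1, 3136.6 and 3510.7 in KO SpV lungs, against 2262.7, 2111.8 and 2043.1 in WT HVT and 2747.1, 3061.3 and 2881.3 in WT SpV lungs. All KO arrays were above all WT arrays under the same kind of breathing, where the share of all probe sets doing so was 11.4% after ventilation and 8.53% at rest. The differences were 0.59 ± 0.15 after ventilation and 0.19 ± 0.15 at rest. This direction depended on scaling: the averaged difference was 0.39 ± 0.10 here and -0.31 without scaling, where the median of all probe sets moved by -0.60.

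No ventilation difference of that Igfbp5 probe set passed the test: WT HVT minus WT SpV was -0.43 ± 0.15 (limma, unadjusted p = 0.0119, adjusted p = 0.475). The 3 and 3 arrays did not overlap, a pattern that 8.01% of all probe sets showed in this direction. KO HVT minus KO SpV was -0.03 ± 0.15, and the interaction was 0.40 ± 0.21 (unadjusted p = 0.0781, adjusted p = 1). The second probe set, 1422313_a_at, went another way. It read 489.3, 330.4 and 520.6 in KO HVT against 125.7, 246.4 and 219.5 in KO SpV lungs, a difference of 1.14 ± 0.40 with no overlap (adjusted p = 0.351), and 184.1, 353.5 and 518.7 in WT HVT against 340.6, 135.4 and 300.7 in WT SpV lungs. Without KO SpV array 1, which had the lowest of these values, the KO HVT minus KO SpV difference was 0.87 ± 0.41 (limma, adjusted p = 0.206). Of all probe sets, 7.49% were higher without overlap in KO HVT than in KO SpV lungs. The 2 probe sets disagree in knockout lungs, so no single direction of Igfbp5 under ventilation can be given. Summed fibroblast markers (10 of 10 above the filter) were 20371 to 24827 in KO HVT and 19581 to 29501 in KO SpV lungs, against 18251 to 28033 in WT HVT and 31835 to 33794 in WT SpV lungs. Summed smooth muscle and pericyte markers (8 of 8 above the filter) were 18515 to 19376 in KO HVT and 15727 to 20154 in KO SpV lungs, against 13986 to 18385 in WT HVT and 13276 to 15352 in WT SpV lungs; as for Igfbp5 1452114_s_at, KO was above WT without overlap under each kind of breathing. The part of either list in the Igfbp5 values was not tested.

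Igf1, the ligand, was read by 3 probe sets. The brightest, 1437401_at, read 320.2, 408.7 and 473.1 in KO HVT and 350.8, 312.5 and 353.1 in KO SpV lungs, against 527.7, 424.9 and 388.8 in WT HVT and 595.5, 243.5 and 634 in WT SpV lungs. Its groups overlapped in most comparisons, and its ventilation difference was 0.22 ± 0.30 in knockout and -0.03 ± 0.30 in wild-type lungs (limma, adjusted p = 0.828 and 0.996). The weakest, 1452014_a_at, read between 83 and 206.4 on the 12 arrays, with differences of -0.10 ± 0.30 in knockout and 0.04 ± 0.30 in wild-type lungs.

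The third Igf1 probe set, 1419519_at, was the member with the smallest p for ventilation in knockout lungs. It read 373.9, 343.8 and 517.2 in KO HVT and 164.3, 183.5 and 246.4 in KO SpV lungs, against 198.4, 319.8 and 273.7 in WT HVT and 295.7, 248.9 and 351.4 in WT SpV lungs. The KO HVT arrays were above every KO SpV and WT HVT array, 1 WT SpV array lay within their range, and the KO SpV arrays were below all WT SpV arrays. KO HVT minus KO SpV was 1 ± 0.23 on the log2 scale, a 1.99-fold higher signal with no overlap (unadjusted p = 0.00103, adjusted p = 0.207), which missed the threshold. Such a separation upward was seen for 7.49% of all probe sets. WT HVT minus WT SpV was -0.18 ± 0.23 (adjusted p = 0.946), and the interaction was 1.18 ± 0.33 (unadjusted p = 0.00375, adjusted p = 0.984). Without KO SpV array 1 the KO difference was 0.88 ± 0.24 (adjusted p = 0.0517), and over the 22 alternatives its adjusted p ranged from 0.0195 to 1. The ventilation differences of the other 2 Igf1 probe sets in knockout lungs, above, were nearer 0.

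Igf1r, the receptor, showed small differences between groups. Probe set 1426565_at read 469.1, 482.5 and 392.5 in KO HVT and 636.8, 377.3 and 402.6 in KO SpV lungs, against 497.2, 427.1 and 434.6 in WT HVT and 447.4, 458.1 and 384.1 in WT SpV lungs. All 4 groups overlapped. The ventilation difference was -0.04 ± 0.20 in knockout lungs (95% interval -0.47 to 0.39) and 0.07 ± 0.20 in wild-type lungs (-0.36 to 0.51), and the averaged KO minus WT difference was 0.04 ± 0.14. A second probe set, 1452108_at, stayed below the filter at 31.7 to 87.8.

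**Figure D4:**
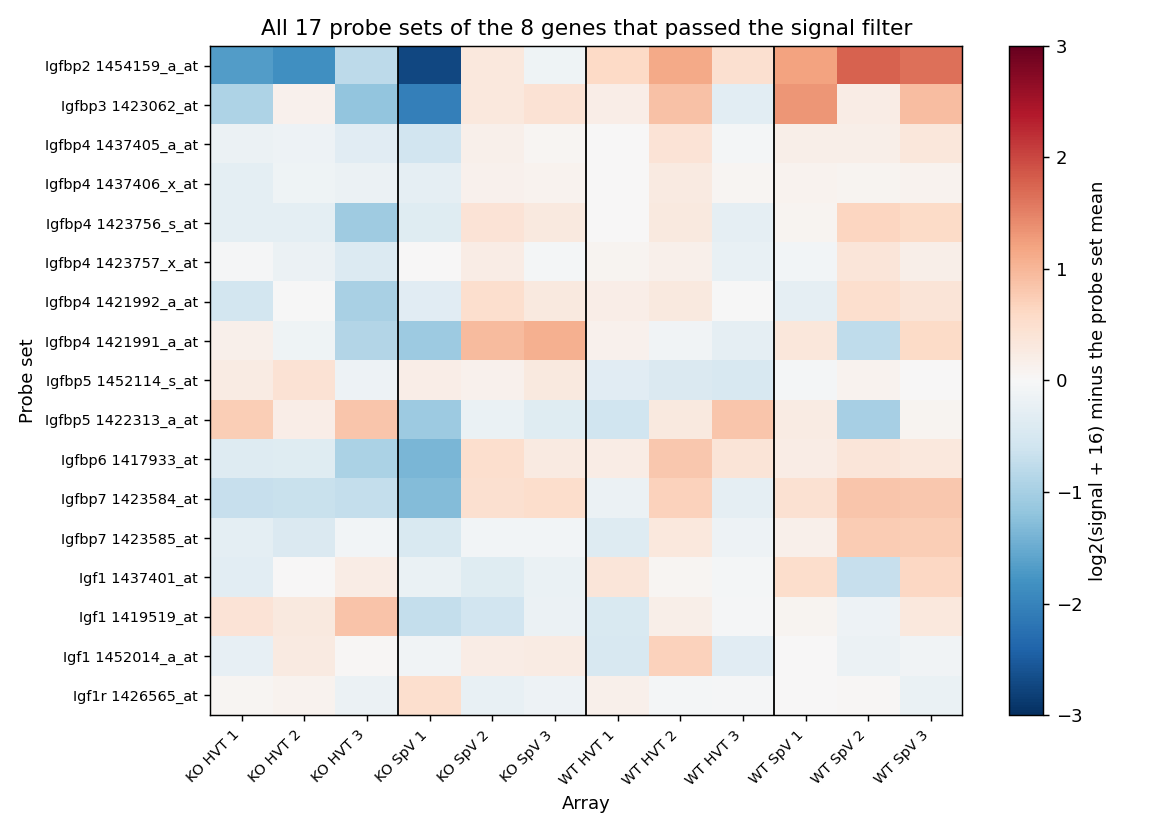
Log2(signal + 16) minus each probe set's mean over the 12 arrays (colour, red above and blue below the mean) for the 17 probe sets that passed the filter (rows) on each array (columns, grouped as KO HVT, KO SpV, WT HVT and WT SpV). Igfbp2, Igfbp3, Igfbp6 and Igfbp7 1423584_at are bluest on KO SpV array 1, where Igfbp5 1452114_s_at and Igf1r are above their means.

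Counted over the 17 probe sets, no member passed a test of ventilation or of the interaction with all 12 arrays. Of the members, 0 of 17 passed limma's test in knockout lungs, where 0% of all 15855 probe sets passed. At an unadjusted p under 0.05 the count was 4 of 17, against 11.1% of all probe sets. In wild-type lungs 0 of 17 passed, against 0.0252% of all, with 2 of 17 at an unadjusted p under 0.05, against 7.3%. Averaged over genotypes, 0 of 17 passed, against 0.126% of all, with 4 of 17 unadjusted, against 13.1%. For the interaction, 0 of 17 passed, against 0% of all, with 1 of 17 unadjusted, against 5.02%.

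The values of the members leaned low after ventilation. In knockout lungs 14 of 17 differences were below 0, with a median of -0.18 against 0.01 over all probe sets, and in wild-type lungs 12 of 17, with a median of -0.14 against -0.02. Probe sets of 1 gene share their transcript, so these counts are not of independent genes. Groups did not overlap for 2 probe sets higher and 0 lower in knockout lungs, against 7.49% and 7.49% of all probe sets, and for 0 higher and 2 lower in wild-type lungs, against 8.42% and 8.01%. Between genotypes, 2 probe sets had all KO HVT arrays above and 7 had all below the WT HVT arrays, where 11.4% and 13.1% of all did; at rest the counts were 1 and 4, where 8.53% and 9.28% did.

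Leaving out KO SpV array 1 moved the counts. In knockout lungs 4 of 17 probe sets then passed, all lower after ventilation (Igfbp2, Igfbp4 1423756_s_at, Igfbp6 and Igfbp7 1423584_at), against 4.02% of all probe sets called lower. Averaged over genotypes 3 passed, all lower (Igfbp2, Igfbp4 1423756_s_at and Igfbp7 1423584_at), against 3.73% of all. In wild-type lungs and for the interaction 0 of 17 passed, against 0.309% and 0.631% of all called in either direction. With arrays weighted by their quality, where that array had a weight of 0.128, 8 of 17 passed in knockout lungs (7 lower and Igf1 1419519_at higher, against 14.1% of all) and 6 of 17 in the average (5 lower and Igfbp5 1422313_a_at higher, against 13.4% of all). With the actin ratio as a covariate, 3 of 17 passed in the average, all lower, against 4.76% of all.

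**Figure D5:**
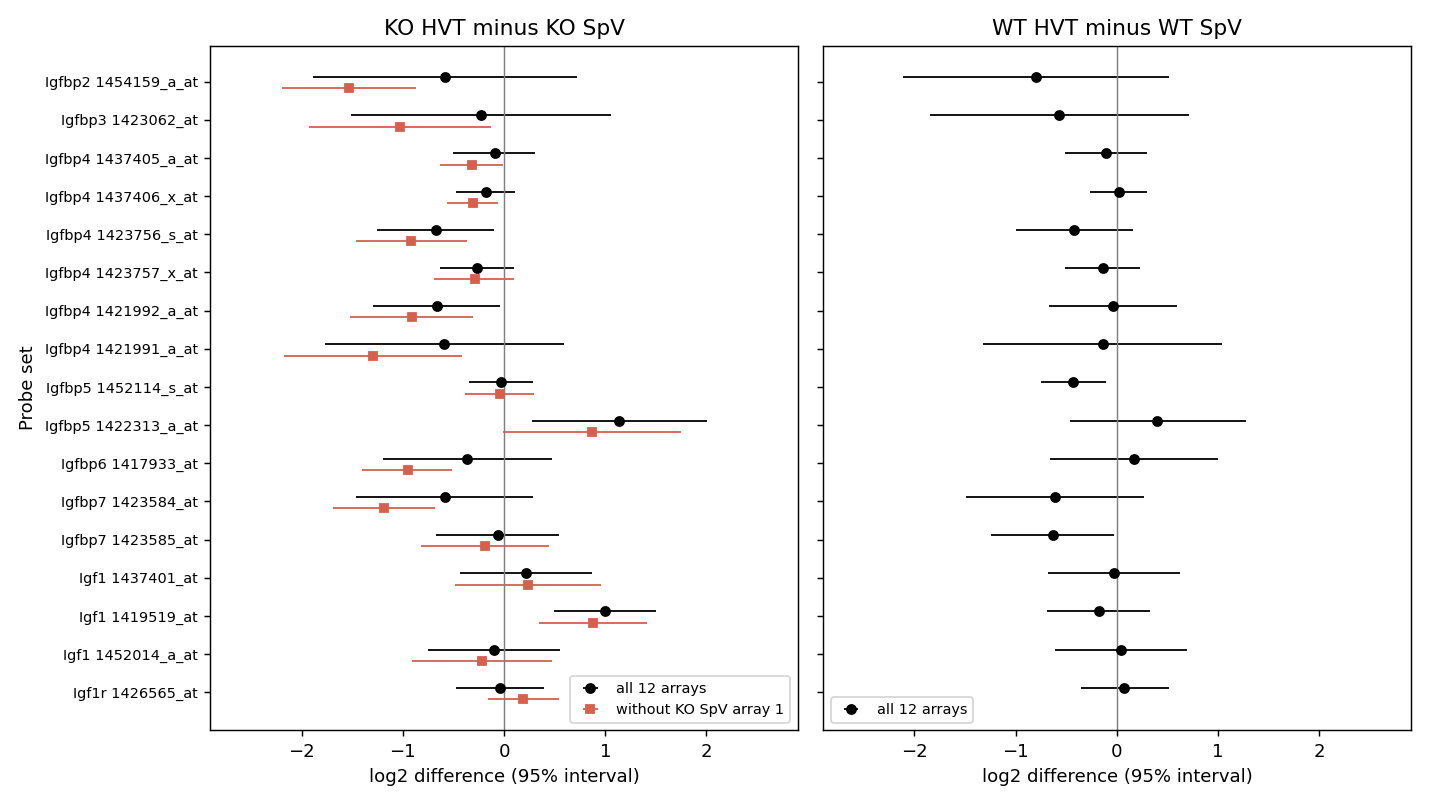
Log2 difference of ventilated minus spontaneously breathing lungs (horizontal axis, points with 95% intervals) for each of the 17 probe sets (vertical axis) in knockout (left) and wild-type lungs (right). Black circles use all 12 arrays and red squares leave out KO SpV array 1; for Igfbp2 the value in knockout lungs is -0.58 with all arrays and -1.53 without that array.

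The other genes of the axis showed no ventilation call with all arrays. Of 35 listed genes (other ligands, receptors, receptor substrates, binding protein proteases and their inhibitors), 33 were on the array and 25 passed the filter; Igfbp1, Ins2, Insr, Irs3, Pappa, Igf2bp1, Igfbpl1 and Kazald1 stayed below it. Limma called 0 of 25 in each of the ventilation contrasts and the interaction, where at most 0.126% of all probe sets were called. At an unadjusted p under 0.05 the counts were 4 in knockout lungs, 2 in wild-type lungs, 3 averaged and 3 for the interaction. The shares of all probe sets were 11.1%, 7.3%, 13.1% and 5.02% in the same order. In knockout lungs the smallest p-values belonged to Shc1, an adaptor of the receptor, at 0.53 ± 0.15 (adjusted p = 0.257), and Foxo3, a transcription factor held back by insulin and IGF signalling, at 0.67 ± 0.20 (adjusted p = 0.286). In wild-type lungs they belonged to Socs2, an inhibitor of growth hormone signalling, at 0.43 ± 0.17 (adjusted p = 0.589), and Stc1, an inhibitor of pappalysin, at 0.44 ± 0.19 (adjusted p = 0.637).

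Averaged over genotypes, Shc1 (0.37 ± 0.10, adjusted p = 0.168) and Pik3ca, the catalytic subunit of PI3-kinase (0.31 ± 0.11, adjusted p = 0.255), came first. For the interaction, Foxo3 (0.95 ± 0.28) and Irs2, a receptor substrate (-2.04 ± 0.77), both had an adjusted p of 0.984. After Cd93, the largest averaged genotype differences were those of Irs1, another receptor substrate, at -0.64 ± 0.29, and of Esm1, a proteoglycan of endothelium, at -0.45 ± 0.55. Both values include KO SpV array 1. Without KO SpV array 1, Esm1 was lower in KO HVT than in KO SpV lungs by 2.24, with an SE of 0.40 (limma, adjusted p = 0.0107). Its interaction of -3.67 ± 0.53 also passed (adjusted p = 0.0208), and the part of array quality in either call was not tested. Its signals were 21.5, 41 and 27.4 in KO HVT and 292.8 and 132.4 on the remaining KO SpV arrays (1.2 on the one left out), against 89.8, 139.1 and 167.4 in WT HVT and 51.3, 25.3 and 39.9 in WT SpV lungs. All KO HVT and WT SpV signals of Esm1 were below 100, the level used by the filter, so both calls rest on weak signals. In the same fit, averaged over genotypes, Shc1 rose (0.38 ± 0.10, adjusted p = 0.0465) and Stat5b, a transcription factor of growth hormone signalling, fell (-0.57 ± 0.13, adjusted p = 0.0289).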

How the data were processed

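RNA of 12 lung samples was measured on 12 arrays in 4 groups of 3, taken from the sample titles. The deposited values are linear probe set intensity values that the authors made with GCOS 1.4, per the submitters' processing notes. The design text describes scaling to an average of 500, which the deposited intensity columns do not show. Each array was therefore scaled to a trimmed mean of 500 (2% left out at each end) and the arrays were quantile normalized. A pseudocount of 16 was added before log2, which shrinks differences of weak signals. Controls (64 probe sets) were dropped, and the filter asked for a scaled signal of at least 100 on at least 3 arrays, which left 15855 of 22690 probe sets. Genes were named by the platform annotation, from probe sets with 1 gene; all 8 genes matched RefSeq by Entrez identifier.

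One limma model (limma 3.58.1, R 4.3.3) estimated the 4 group means from all 12 arrays (eBayes with an intensity trend, 8 residual and 4.38 prior degrees of freedom), two-sided, with Benjamini-Hochberg adjustment over all 15855 probe sets and a threshold of 0.05. The median SE of a difference between 2 groups was 0.242. Precision is limited by having 3 arrays in a group, where an exact permutation test cannot give a p below 0.1. The script was tested on simulated data. The members and gene lists were chosen with earlier results of these data known. All probe sets of the members are named; a gene given by 1 value has its brightest. Of the other axis genes, those called, otherwise the 2 with the smallest p in a contrast, and the 3 with the largest genotype difference are named, and the 5 most similar profiles to Igfbp2. The alternatives were other scalings, pseudocounts of 1 and 64, no filter, no trend, array weights, 1 probe set per gene, the actin ratio as a covariate, a replicate block and leaving out each array.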

Additional observations from a re-analysis of the deposited data

Results flagged for a closer look

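Igf1 probe set 1419519_at met a rule for a difference between groups, because the KO SpV arrays were below every WT SpV array and the KO HVT arrays above every WT HVT array. Its interaction was 1.18 ± 0.33 on the log2 scale (limma, unadjusted p = 0.00375, adjusted p = 0.984), so it failed the correction, and 3 of 3 KO HVT arrays were above 3 of 3 KO SpV arrays. Over the 22 alternatives its adjusted p for the interaction ranged from 0.0683 to 1. The other 2 probe sets of Igf1 gave interactions of 0.25 and -0.15. With 3 arrays in a group, no array was tested as an outlier.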

How the results depend on the processing

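KO SpV array 1 decided the ventilation calls: members called were 0 with all arrays and 0 to 4 in knockout lungs, or 0 to 3 averaged over genotypes, when 1 array was left out, with 4 and 3 only without that array. Array weights (whose estimation stopped short of its tolerance) gave 8 and 6 calls, and the actin covariate gave 3 in the average and 0 in knockout lungs. The wild-type and interaction counts were 0 of 17 in every alternative. Counts over all probe sets, which were 0 (knockout), 4 (wild type), 20 (average) and 0 (interaction), were 999, 49, 956 and 100 without KO SpV array 1, 2234, 461, 2118 and 346 with array weights, and 121, 67, 755 and 0 with the actin covariate. In the other alternatives that kept all arrays they were 1 to 9 in wild-type lungs and 2 to 20 in the average. The averaged Igfbp2 genotype difference ranged from -2.79 (no scaling) to -1.81, and from -2.58 to -1.81 when 1 array was left out. The replicate block left the member counts at 0 in all 4 contrasts and Igfbp2 at -2.28, with an SE of 0.36; the count over all probe sets in the average was 3. Of same-numbered arrays in different groups, 6 of 18 correlations were over 0.1 (range -0.18 to 0.38), against 7 of 36 between different numbers; all 9 that did not involve KO HVT were above 0. The best partner in another group had the same number in 17 of 36 cases, where 12 would match at random. The titles give the numbers without saying what they stand for, and the main fit did not take them as pairs. A shared effect of the same number was not tested beyond the replicate block above. Of the ventilation and interaction values, 1420 kept their direction and side of the threshold, 24 passed only in the alternative, 0 lost a call and 84 changed sign, 0 of them called in either fit; of the genotype values 1081 moved by less than the spread between arrays and 42 by more.

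Sign changes were as follows, and their cause was not tested. With the actin covariate, the wild-type differences of Igfbp6, Igf1 1437401_at, Igfbp4 1437406_x_at and Igf1 1452014_a_at were -0.14, 0.01, -0.05 and -0.04. With array weights the interactions of Igfbp2, Igfbp3, Igfbp4 1437405_a_at, Igfbp7 1423584_at and Igfbp4 1423757_x_at were -0.44, -0.08, -0.07, -0.39 and 0, the wild-type Igfbp4 1437406_x_at and Igf1 1452014_a_at were -0.01 and -0.09, the averaged Igf1 1437401_at was -0.08, and Igf1r was 0.15 in knockout lungs and 0.06 for the interaction. Without scaling, where the median of all probe sets moved by -0.27 in knockout lungs, 0.03 in wild-type lungs, -0.12 in the average and -0.32 in the interaction, the interactions of Igfbp2, Igfbp3, Igfbp4, Igfbp7 and Igf1 were -0.36, -0.19, -0.28, -0.37 and -0.08, Igfbp4 in wild-type lungs was 0.02, Igf1 was -0.08 in knockout lungs and -0.04 in the average, and the averaged Igf1r was -0.10. With equal medians, Igfbp4 and Igfbp7 1423585_at in knockout lungs were 0 and 0.01 and the Igfbp7 1423584_at interaction was -0.07. With the trimmed mean scaling alone, Igfbp4, Igfbp5 1452114_s_at and Igfbp7 1423585_at in knockout lungs were 0.02, 0 and 0.02, and the Igfbp7 1423584_at interaction was 0.

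When 1 array was left out, the interaction ranged from -0.72 to 0.80 for Igfbp2, -0.46 to 0.78 for Igfbp3, -0.21 to 0.16 for Igfbp4 1437405_a_at, -0.50 to 0.01 for Igfbp4 1423756_s_at, -0.36 to 0.22 for Igf1 1452014_a_at, -0.58 to 0.35 for Igfbp7 1423584_at and -0.25 to 0.11 for Igf1r. The knockout difference ranged from -1.03 to 0.21 for Igfbp3, -0.32 to 0.05 for Igfbp4 1437405_a_at, -0.16 to 0.13 for Igfbp5 1452114_s_at, -0.19 to 0.02 for Igfbp7 1423585_at, -0.23 to 0.03 for Igf1 1452014_a_at and -0.18 to 0.19 for Igf1r. The wild-type difference ranged from -0.46 to 0.21 for Igf1 1437401_at, -0.32 to 0.26 for Igf1 1452014_a_at, -0.54 to 0.12, -0.28 to 0.11 and -0.06 to 0.07 for Igfbp4 1421991_a_at, 1421992_a_at and 1437406_x_at, and 0 to 0.12 for Igf1r. The average ranged from -0.39 to 0.08 for Igfbp6, -0.12 to 0.21 for Igf1 1437401_at, -0.21 to 0.08 for Igf1 1452014_a_at and -0.05 to 0.13 for Igf1r. Dim probe sets, such as Igfbp7 1437804_at and Igf1r 1452108_at, lay below the signal at which a difference can be read.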
